A study of Bos taurus with 4 samples.

Results

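A set of 6 immediate-early genes was followed in the subcutaneous fat of Qinchuan cattle, a Chinese breed. They were FOS, FOSB, JUN and JUNB, which encode subunits of the transcription factor AP-1, EGR1, which encodes a zinc finger transcription factor, and ZFP36, which encodes an RNA-binding protein that promotes mRNA decay. Each was taken as the UniGene cluster (transcript sequences grouped by similarity, 1 of which represents the group) whose header named the gene by symbol or full name. Each of the 6 had 1 such cluster, so the genes were 6 of 36373 clusters with reads, of which 13230 carried a name and the rest were expressed sequence tags. The groups were fetuses of 200 to 250 days (ATFB), whose sex the labels did not give, and cattle of 18 to 24 months that were bulls (ATAB), heifers (ATAH) or steers, which are castrated males (ATAS). The fetuses came from cows at a local abattoir and the adult cattle from a livestock company, so source and stage cannot be told apart. Fat was frozen in liquid nitrogen directly after slaughter, that of 5 animals per group was pooled, and each pool gave 1 library. With 1 library a group there was no replicate error, so every test between 2 libraries below compared those libraries and not the conditions.

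The libraries were alike in depth, with 15.3 M to 16.1 M counted reads. As a check of the tissue label, 5 of 6 adipocyte markers had a named cluster, and they summed to 545 RPKM (reads per kilobase of sequence per 1 M counted reads) in fetal fat, 3606 in bulls, 4612 in heifers and 5209 in steers. FABP4 was the marker without one. The adipocyte markers were present in all 4 libraries and lowest in ATFB.

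Immediate-early genes are transcribed within minutes of a signal, from factors already present in the cell, and need no new protein for it. FOS proteins pair with JUN proteins through a leucine zipper to form AP-1, while JUN proteins can also pair with each other. EGR1 binds GC-rich promoter sites, and ZFP36 binds AU-rich elements in the 3′ untranslated regions of short-lived mRNAs and recruits the enzymes that remove their poly(A) tails. In fat, the early hours after a differentiation signal and responses to hormones, stretch and stress are known settings for these genes.

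AU-rich elements are shown because they are the sequences that ZFP36 binds, and because several of these mRNAs carry them. In each line 30 bases of the deposited cluster sequence after the coding end are given, 5′ to 3′, and capitals mark the motif ATTTA.
FOS: tATTTAttaagatggattctcagatATTTA
FOSB: acgacctcagcttATTTAtccaacatttcc
JUN: ttccagaaaggatATTTAagaaaatacaat
JUNB: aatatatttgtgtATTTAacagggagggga
EGR1: actgaaaatgtaaATTTAtaaatataattc
ZFP36: cccttATTTAtgacgactttATTTAttcta

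The motif ATTTA was searched on the given strand, from the coding end stated in the sequence header to the last base. FOS held 5 copies in 844 bases, and 6.39% of the 1801 named clusters with a stretch of that length, within 20%, held as many. ZFP36, whose own mRNA thus holds the motif its protein recognises, had 4 copies in 693 bases, and 8.80% of 1920 clusters held as many. JUNB had 3 copies in 522 bases, which 10.7% of 1878 clusters reached. The stretches of FOS, ZFP36 and JUNB were therefore among the richer ones of their length. FOSB, with 3 copies in 2218 bases, JUN, with 1 in 820 bases, and EGR1, with 1 in 1253 bases, were not, since 66.0%, 64.4% and 77.4% of clusters of like length held as many. The longer TATTTAT, which contains ATTTA, occurred 2 times in FOS, 2 times in FOSB and 3 times in ZFP36, and not in JUN, JUNB or EGR1. It was found in 20.7%, 42.5% and 19.1% of clusters with stretches as long as those of FOS, FOSB and ZFP36. A match is a run of letters and was not tested as a binding site.

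The coding sequences of the AP-1 subunits are shown where the pairs were most alike, which lies in the basic DNA-binding region and the leucine zipper that follows it. Each line gives 90 bases, 5′ to 3′, and capitals mark the bases that differ within the pair FOS and FOSB or within the pair JUN and JUNB.
FOS: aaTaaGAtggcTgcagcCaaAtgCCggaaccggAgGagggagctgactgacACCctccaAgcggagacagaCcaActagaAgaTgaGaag
FOSB: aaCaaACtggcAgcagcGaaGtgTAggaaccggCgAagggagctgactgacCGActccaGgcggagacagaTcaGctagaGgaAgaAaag
JUN: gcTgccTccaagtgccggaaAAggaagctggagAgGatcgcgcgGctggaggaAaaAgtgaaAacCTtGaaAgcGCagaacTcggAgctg
JUNB: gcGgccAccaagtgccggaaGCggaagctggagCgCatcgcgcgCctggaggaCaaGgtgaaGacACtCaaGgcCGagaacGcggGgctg

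FOS and FOSB shared 71 of the 90 bases (78.9%), and JUN and JUNB shared 72 (80%). The longest run of identical bases over the whole clusters was 15 between FOS and FOSB, 18 between JUN and JUNB, 12 between EGR1 and EGR2 and 21 between ZFP36 and ZFP36L1. JUN and JUND shared a run of 50 bases.

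All 6 genes ranked within the top 7.32% of clusters with reads in every adult library, and in each the heifer and steer libraries exceeded those of bulls and fetuses, an order seen in 43.0% of named clusters with at least 1000 reads (26.2% with edgeR's TMM factors and 33.4% with libraries scaled to their ACTB reads, where all 6 genes kept it). Together they took 0.0936% of the reads in fetal fat, 0.129% in bulls, 0.383% in heifers and 0.503% in steers. Reads covered between 84.1% and 99.5% of each cluster in every library. The levels below are RPKM, a scale per length, so they can be set beside each other between genes. In bulk tissue, fewer cells that express a gene and less RNA per cell cannot be told apart.

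**Figure D1:**
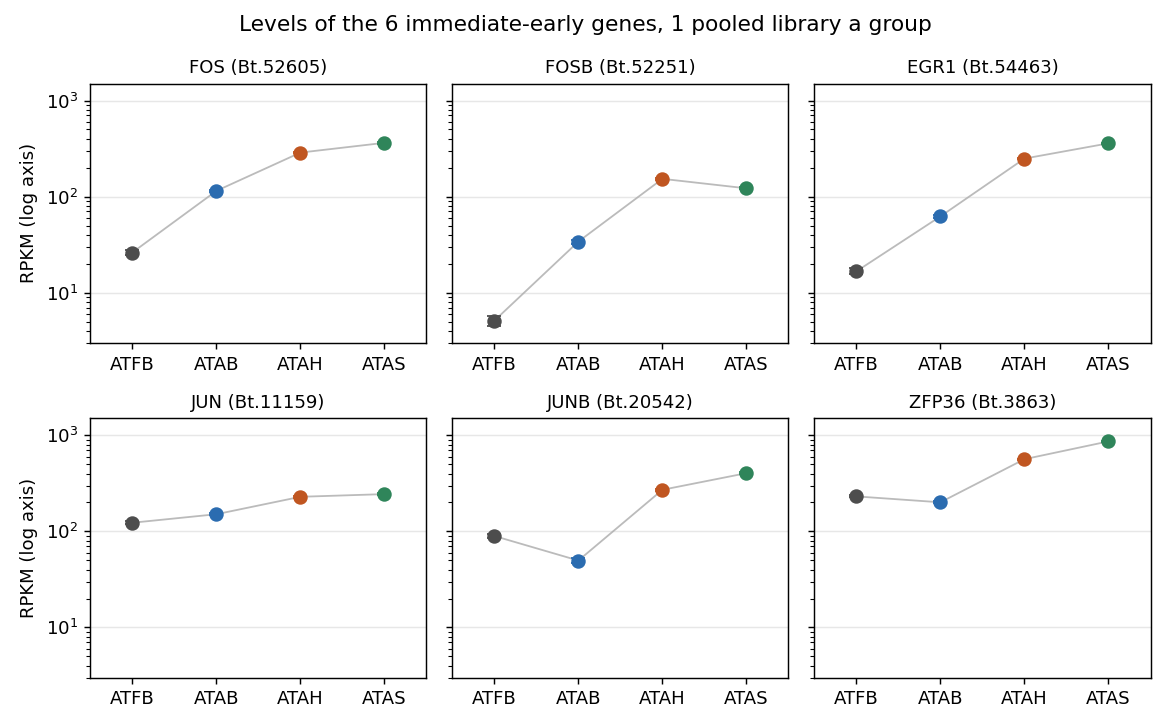
RPKM of each gene (log axis) in the 4 libraries, 1 point per pooled library, with bars for the 95% counting interval, most of them smaller than the point. FOS, FOSB and EGR1 climb from 26.2, 5.11 and 16.7 RPKM in ATFB, JUN moves least, and JUNB and ZFP36 are lowest in ATAB.

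FOS, the founding member of the FOS family, had 26.2 RPKM in fetal fat (853 reads, 95% Poisson interval 24.5 to 28.0), 115 in bulls (111 to 118), 287 in heifers (282 to 293) and 363 in steers (357 to 370). The 4 intervals did not overlap, and the highest library stood 13.9-fold above the lowest. Among clusters with reads, FOS ranked in the top 11.4% in ATFB and in the top 0.524% in ATAS.

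FOSB, its close relative, was the lowest of the 6 in every library, with 5.11 RPKM in fetal fat (255 reads, interval 4.50 to 5.77), 34.0 in bulls (32.5 to 35.6), 153 in heifers (150 to 157) and 122 in steers (119 to 125). It spanned the widest range, 29.99-fold, and was the only one of the 6 with its highest level in ATAH.

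JUN, the partner of FOS in the classical AP-1 dimer, had 123 RPKM in fetal fat (3753 reads, interval 119 to 127), 151 in bulls (147 to 155), 229 in heifers (224 to 234) and 244 in steers (239 to 250). It followed the order of FOS over a far narrower range, 1.99-fold.

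JUNB, which often acts against JUN in dimers with FOS proteins, had 89.5 RPKM in fetal fat (2524 reads, interval 86.0 to 93.0), 49.7 in bulls (47.2 to 52.3), 271 in heifers (265 to 277) and 404 in steers (396 to 411). Unlike FOS and JUN it was lowest in the bulls, and its range was 8.12-fold.

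EGR1, an early gene that many growth factors induce, had 16.7 RPKM in fetal fat (797 reads, interval 15.5 to 17.9), 62.2 in bulls (60.1 to 64.4), 249 in heifers (244 to 253) and 359 in steers (353 to 364). Its range was 21.5-fold, and its rank among clusters with reads went from the top 17.1% in ATFB to the top 0.533% in ATAS.

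ZFP36, the mRNA decay factor also called tristetraprolin, was the most abundant of the 6 in each library. It had 231 RPKM in fetal fat (6121 reads, interval 225 to 237), 201 in bulls (195 to 206), 564 in heifers (555 to 573) and 864 in steers (853 to 875). Its range was 4.31-fold, and like JUNB it was lowest in the bulls. The fetal level of ZFP36 was thus 8.83-fold that of FOS, while in ATAS the ratio was 2.38.

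Profiles over the 4 libraries were centred on each gene's own mean log2 RPKM and compared in pairs. The root mean square difference between 2 profiles, on the log2 scale, was smallest for EGR1 and FOS (0.34), JUNB and ZFP36 (0.38) and EGR1 and FOSB (0.43). The widest gap was that between FOSB and JUN, 1.56. These distances rest on 4 libraries and are a description.

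The balance of AP-1 subunits differed between the fetal library and the adult ones. FOS, FOSB, FOSL1 and FOSL2 summed to 49.2 RPKM in fetal fat, 187 in bulls, 520 in heifers and 607 in steers. JUN, JUNB and JUND summed to 342, 341, 695 and 889 RPKM in the same order. The FOS family was 0.144 of the JUN family in fetal fat, 0.549 in bulls, 0.749 in heifers and 0.684 in steers, so in each library JUN family transcripts were the more abundant. ATFB and ATAB had nearly the same JUN family sum, and their FOS family sums lay far apart. These are levels of mRNA and not of protein dimers.

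**Figure D2:**
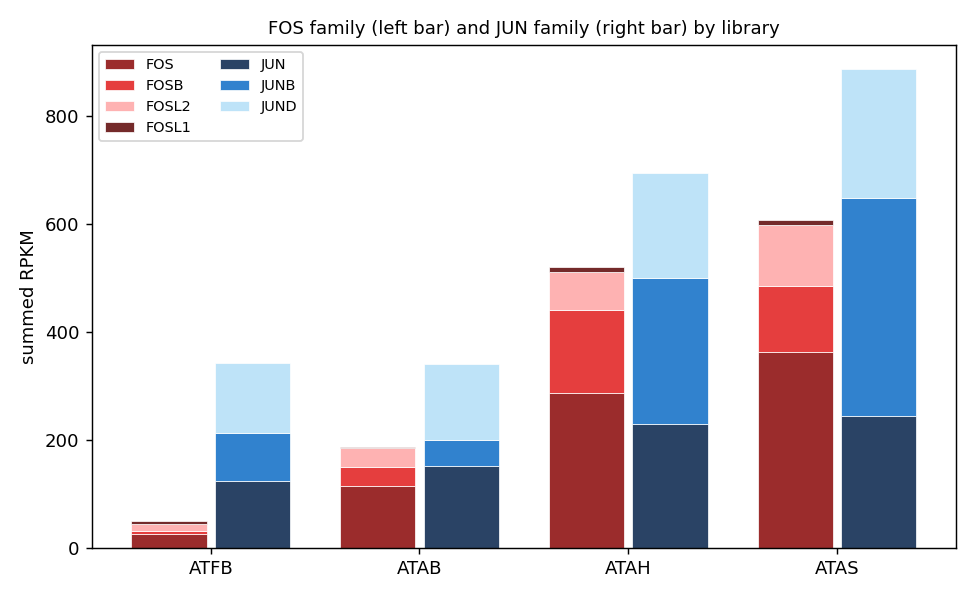
Summed RPKM of the FOS family (left bar of each pair) and the JUN family (right bar) in the 4 libraries, stacked by gene. The JUN family bars of ATFB and ATAB are of equal height (342 and 341 RPKM), while the FOS family bar of the fetal library (49.2 RPKM) is far below that of the bulls (187 RPKM).

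The first comparison asked how fetal and adult fat differed, one adult library at a time. Reads of a cluster in 2 libraries were compared by an exact binomial test (two-sided), and a cluster was called when its Benjamini-Hochberg adjusted p (FDR) was at most 0.001 and its RPKM differed at least 2-fold. Between ATAB and ATFB 3 of the 6 genes, FOS, FOSB and EGR1, were called higher in ATAB, where 9.61% of all 34096 clusters tested were called higher and 22.9% in either direction. In named clusters with at least 1000 reads over both libraries, a class as abundant as these genes, the share called higher was 12.5%. The log2 ratio was 2.13 for FOS (95% interval of the ratio 2.02 to 2.24), 2.74 for FOSB (2.55 to 2.93) and 1.90 for EGR1 (1.79 to 2.01). JUN was 0.29 (0.23 to 0.36) and ZFP36 was -0.20 (-0.26 to -0.15), both under the 2-fold limit. JUNB was -0.85 (-0.94 to -0.76), not called with library totals, and was called lower in ATAB, at -1.09, when the libraries were scaled by the reads of ACTB.

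In ATAH 5 of the 6 genes were called higher than in ATFB, against 14.0% of clusters (24.1% in either direction) and 18.4% of the abundant named ones. FOSB led with a log2 ratio of 4.91 (interval 4.73 to 5.09), which is 29.99-fold, followed by EGR1 at 3.90 (3.80 to 4.01) and FOS at 3.46 (3.35 to 3.56). JUNB at 1.60 (1.53 to 1.66) and ZFP36 at 1.29 (1.24 to 1.33) rose less, and JUN at 0.90 (0.84 to 0.95) stayed under 2-fold. The median of the 6 was 2.53, while that of all clusters was 0.11.

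In ATAS the same 5 genes were called higher than in ATFB, against 15.6% of clusters (26.3% in either direction) and 22.4% of the abundant named ones. EGR1 was at 4.43 (interval 4.33 to 4.53), or 21.5-fold, FOSB at 4.58 (4.40 to 4.76), FOS at 3.79 (3.69 to 3.89), JUNB at 2.17 (2.11 to 2.24) and ZFP36 at 1.90 (1.86 to 1.94). JUN reached 0.99 (0.93 to 1.05), at the edge of the limit. The median of the 6 was 2.98, against 0.10 for all clusters. These 3 comparisons share the ATFB library.

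**Figure D3:**
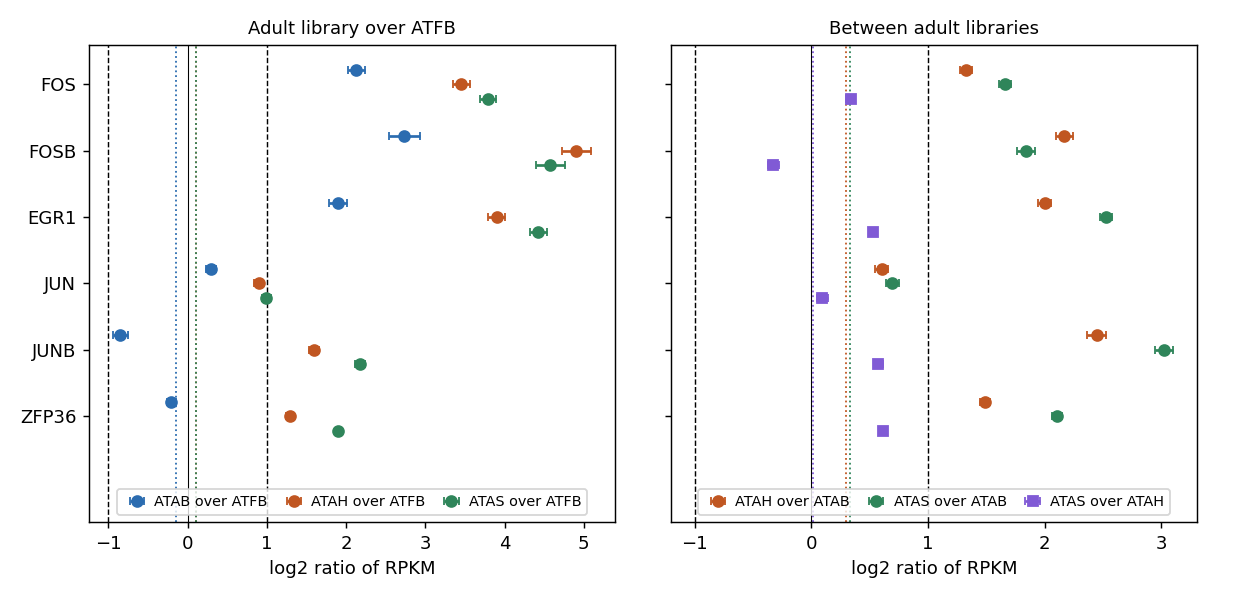
Log2 ratio of RPKM of each gene with its 95% counting interval, adult libraries over ATFB on the left and adult libraries against each other on the right, with dotted lines at the median of all clusters and dashed lines at 2-fold. FOS, FOSB and EGR1 lie beyond 2-fold in all 3 adult libraries, the 5 genes other than JUN lie beyond 2-fold in ATAH and ATAS over ATAB, and all ATAS over ATAH ratios lie within 2-fold.

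Taking the 3 adult libraries as 1 stage allowed a test with a spread, estimated among bulls, heifers and steers. The fetal arm was 1 library, assumed to vary like the adult ones, and the adult spread is one between 3 conditions, so these p-values hold no measure of the spread among fetal or like-treated adult libraries. Each SE given with this test was worked back from it, as the log2 fold change over the square root of its F statistic. With edgeR's quasi-likelihood test at an adjusted p of 0.05, 4656 of 25649 clusters (18.2%) were called, 9.98% of all and 12.7% of named ones with at least 2000 reads higher in the adult libraries, and 3 of the 6 genes were called higher. FOS had 26.2 RPKM in ATFB and 255 ± 127 in the adult libraries (SD, n = 3), a log2 fold change of 3.22 ± 0.66 (SE, edgeR adjusted p = 0.024). FOSB had 103 ± 61.8 RPKM in the adult libraries, a change of 4.26 ± 0.87 (edgeR adjusted p = 0.0242). EGR1 had 223 ± 150 RPKM, a change of 3.66 ± 0.95 (edgeR adjusted p = 0.0436).

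JUN, JUNB and ZFP36 did not pass that test. Their log2 fold changes were 0.72 ± 0.35 for JUN (edgeR adjusted p = 0.179), 1.34 ± 0.94 for JUNB (edgeR adjusted p = 0.334) and 1.16 ± 0.70 for ZFP36 (edgeR adjusted p = 0.266). Without ATAB, the adult library in which both were lowest, JUNB at 1.78 (edgeR adjusted p = 0.00975) and ZFP36 at 1.50 (edgeR adjusted p = 0.02) were called and the count was 5 of 6, while over all clusters 7326 of 25283 were called, 3879 of them higher. Without ATAS, with 5136 of 25016 clusters called, JUNB at 0.79 (edgeR adjusted p = 0.456) and ZFP36 at 0.70 (edgeR adjusted p = 0.407) were not called.

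The second comparison was between the sexes and castration, among adults. ATAB was below both ATAH and ATAS for all 6 genes, an order found in 67.2% of named clusters with at least 1000 reads (39.4% under TMM, where all 6 genes kept it). In ATAH 5 of the 6 genes, all but JUN, were called higher than in ATAB, against 4.32% of all clusters tested (5.58% in either direction) and 3.88% of the abundant named ones. JUNB differed most, with a log2 ratio of 2.45 (interval 2.37 to 2.53), or 5.45-fold. FOSB followed at 2.17 (2.10 to 2.25), then EGR1 at 2.0 (1.94 to 2.06), ZFP36 at 1.49 (1.45 to 1.54) and FOS at 1.32 (1.27 to 1.38). JUN was at 0.60 (0.55 to 0.66). The median of the 6 was 1.75, and that of all clusters 0.29.

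In steers the same 5 genes were called higher than in bulls, against 7.0% of clusters (8.88% in either direction) and 10.2% of the abundant named ones. JUNB had 49.7 RPKM in ATAB and 404 in ATAS, 8.12-fold apart, a log2 ratio of 3.02 (interval 2.94 to 3.10). EGR1 was at 2.53 (2.47 to 2.58), ZFP36 at 2.11 (2.06 to 2.15), FOSB at 1.84 (1.77 to 1.92) and FOS at 1.66 (1.61 to 1.71), and JUN was at 0.70 (0.64 to 0.75). The median of the 6 was 1.97, while all clusters had a median of 0.33. The order of the genes by ratio thus began with JUNB in both comparisons, whereas against ATFB it began with FOSB.

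Between steers and heifers 0 of the 6 genes were called, where 3.08% of clusters were called in either direction. ZFP36 at 0.62 (0.59 to 0.65), JUNB at 0.58 (0.53 to 0.62), EGR1 at 0.53 (0.49 to 0.56), FOS at 0.34 (0.30 to 0.38) and JUN at 0.09 (0.05 to 0.14) were higher in ATAS on the log2 scale, and FOSB was lower at -0.33 (-0.38 to -0.28). Each interval excluded 0 for counting error, and each ratio was under 2-fold. The 3 adult comparisons share libraries in pairs.

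Another scaling moved these ratios together with those of all clusters. TMM factors shifted the median log2 ratio of all clusters by -0.28 for ATAH over ATAB and by -0.29 for ATAS over ATAB, to 0.02 and 0.03. Under TMM the ratios over ATAB were 2.17 and 2.73 for JUNB, 1.72 and 2.23 for EGR1, and 1.05 and 1.37 for FOS, in ATAH and ATAS. JUN was at 0.33 and 0.40 under TMM. The same 5 genes were called in both comparisons under TMM and under scaling by ACTB. Scaling by ACTB shifted the median of all clusters by -0.24 to -0.27 in the comparisons with ATFB, and no ratio of the 6 genes changed its sign under either scaling.

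The balance of calls over all clusters turned with the scaling. In ATAS over ATAB 2359 clusters were called higher and 636 lower with library totals, and 1153 higher and 1182 lower under TMM. For heifers over bulls 1464 higher and 426 lower became 716 and 749. With ACTB scaling these adult splits were 2275 and 651 for steers and 1337 and 451 for heifers. Over fetal fat, bulls had 3278 higher and 4530 lower with library totals, 3977 and 3505 under TMM and 2496 and 6065 under ACTB. Heifers had 4846 and 3474 over fetal fat, then 4386 and 3952 under TMM and 3650 and 4969 under ACTB, and steers 5368 and 3708, then 4864 and 4306, and 4237 and 5037. The shares of clusters called that stand beside the counts of genes are those with library totals.

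Of a list of 45 other immediate-early genes, 37 had a named cluster, and all 37 were higher in ATAS than in ATAB (36 under TMM). Of these, 26 were called higher and 0 lower (20 and 0 under TMM), where 2359 of all clusters (7.0%) were called higher (1153 under TMM), with a median log2 ratio of 1.38 against 0.33 for all clusters. Between ATAH and ATAB 22 were called higher and 0 lower (18 and 0 under TMM), where 1464 of all clusters (4.32%) were called higher (716 under TMM), with a median of 1.16 against 0.29. With TMM, 34 of the 37 kept ATAB as the lowest adult library, against 39.4% of named clusters with at least 1000 reads.

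The 5 genes of the list with the most reads were DUSP1, RHOB, CEBPD, CYR61 and NR4A1. DUSP1, a phosphatase that switches off MAP kinases, had 156 RPKM in fetal fat, 230 in bulls, 463 in heifers and 560 in steers, and was called higher in ATAH and ATAS than in either other library. Its calls over ATAB were lost under TMM, where the log2 ratios of 1.01 and 1.28 became 0.73 and 0.99. CYR61, a secreted matricellular protein, had 67.2, 121, 312 and 314 RPKM and was called in the same 4 comparisons, also under TMM. Their order was that of FOS.

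NR4A1, an orphan nuclear receptor, had 81.0, 53.3, 185 and 299 RPKM, lowest in ATAB as were JUNB and ZFP36. RHOB, a small GTPase, had 139, 163, 267 and 321 RPKM and was called in ATAS over ATFB alone (log2 ratio 1.21), and under ACTB scaling in none. CEBPD, a transcription factor of early fat cell differentiation, had 447, 96.4, 216 and 278 RPKM. It thus differed from the 6 genes in being highest in the fetal library, and was called lower in ATAB and in ATAH than in ATFB.

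Against ATFB the list split by adult library. It had 21 genes called higher and 1 lower (CEBPD) in ATAH, and 23 higher and 0 lower in ATAS, with medians of 1.19 and 1.47, where 14.0% and 15.6% of all clusters were called higher. In ATAB 3 were called higher and 7 lower, with a median of 0.24, where 9.61% of all clusters were called higher and 13.3% lower. The 3 were CSRNP1, GADD45G and TNFAIP3, named here after their values were seen. TMM turned these counts for ATAB to 8 higher and 3 lower, and ACTB scaling to 2 higher and 9 lower, so the direction of the list between ATAB and ATFB depended on the scaling.

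**Figure D4:**
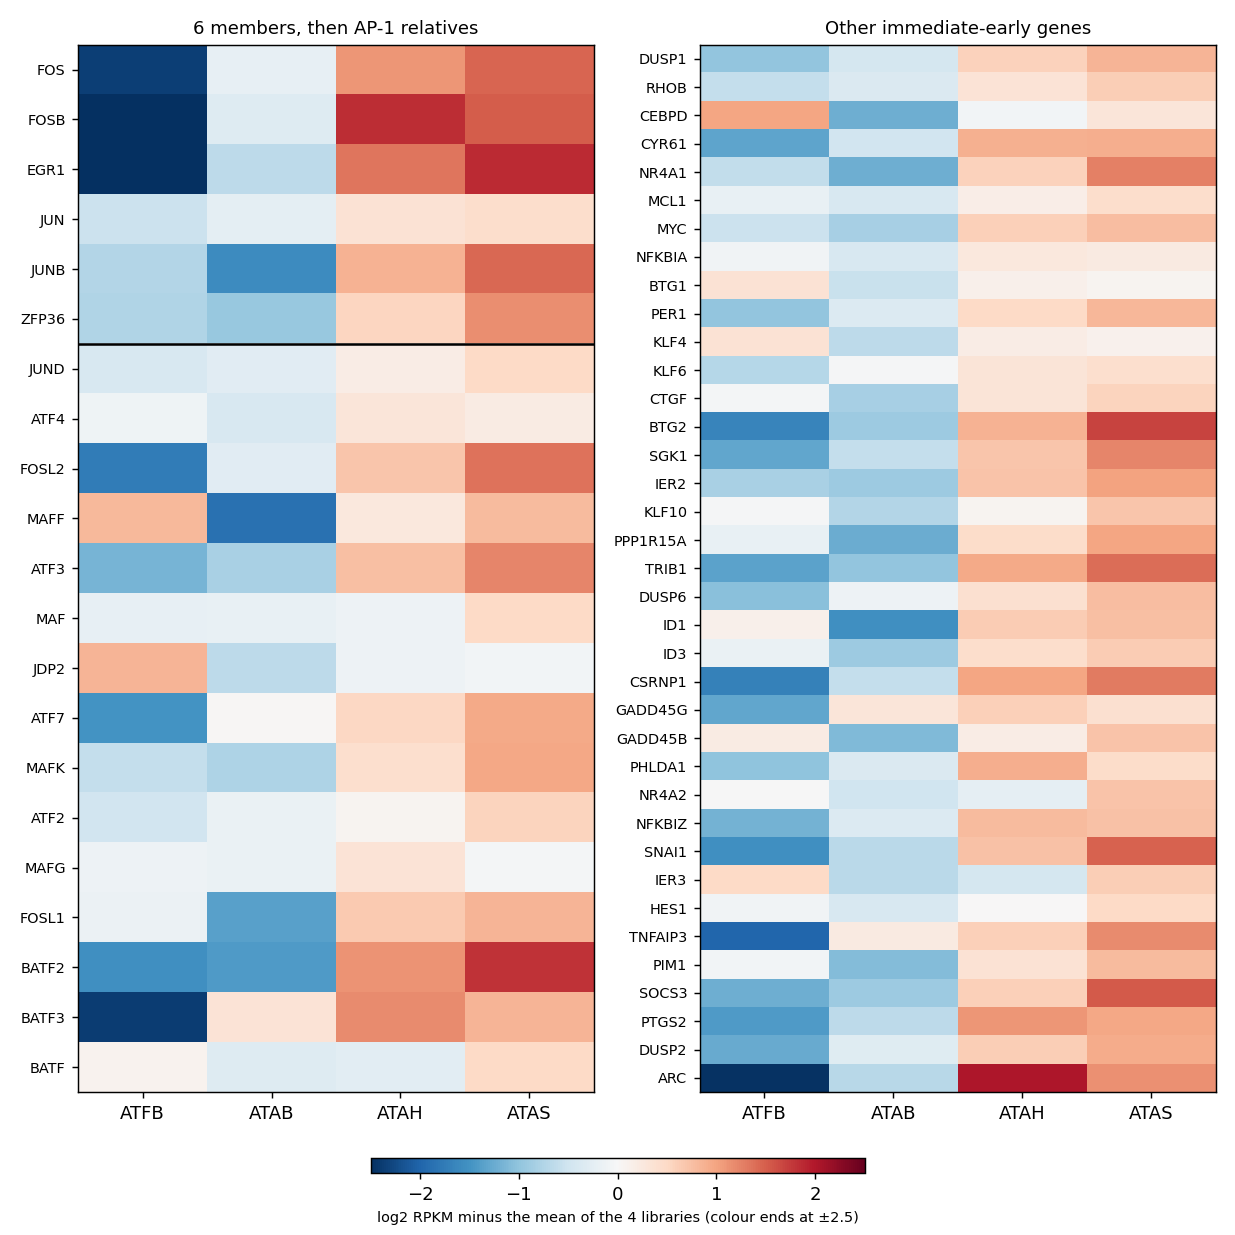
Log2 RPKM of the 6 genes and of AP-1 relatives (left) and of 37 other immediate-early genes (right), each row centred on its mean over the 4 libraries and ordered by reads. Rows are mostly blue in ATFB and ATAB and red in ATAH and ATAS, with CEBPD, MAFF and JDP2 among the rows that are red in ATFB.

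Of 16 AP-1 relatives, all with a named cluster, 6 were called higher in ATAS than in ATAB and 5 in ATAH than in ATAB, with 0 lower, and the medians were 0.79 and 0.62. Of all clusters 7.0% and 4.32% were called higher in these comparisons. Against ATFB 4 of the 16 were called higher and 3 lower in ATAB, 7 higher and 0 lower in ATAH, and 8 higher and 0 lower in ATAS, where 9.61%, 14.0% and 15.6% of all clusters were called higher. Under TMM, as under ACTB scaling, 5 were called higher and 1 lower in ATAH, and 7 higher and 1 lower in ATAS. JUND, a JUN family member that many tissues express without stimulation, had 130 RPKM in fetal fat, 140 in bulls, 195 in heifers and 241 in steers and was called in no comparison. ATF4, a factor of the stress response, was also called in none, with 202, 165, 268 and 250 RPKM. FOSL2, a FOS family member, had 13.1, 36.3, 71.4 and 113 RPKM, the order of FOS, and its adult over fetal change of 2.43 ± 0.59 was called (edgeR adjusted p = 0.036).

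The small Maf protein MAFF had 46.3 RPKM in fetal fat, 7.17 in bulls, 31.4 in heifers and 45.6 in steers. It was thus lowest in the bulls, and its ratio of ATAS over ATAB, 2.67 on the log2 scale, stood beside 3.02 for JUNB.

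Of 5 EGR family members and corepressors, 4 had a named cluster. EGR2, a close relative of EGR1, had 0.206 RPKM in fetal fat, 1.30 in bulls, 4.37 in heifers and 10.2 in steers, the order of EGR1 at a far lower level and on 3 reads in fetal fat, 20 in bulls, 65 in heifers and 152 in steers. Its ratio of bulls over fetal fat was not called (it was under TMM), and it was called higher in ATAH and in ATAS than in either other library. It was also called higher in ATAS than in ATAH, where EGR1 was not called. NAB2, a corepressor that EGR proteins induce and that binds them, had 19.0, 7.03, 12.1 and 17.7 RPKM, and NAB1, its relative, had 8.25, 7.88, 10.3 and 13.1 RPKM. NAB2 was called lower in ATAB than in ATFB and higher in ATAS than in ATAB. EGR4 had no read outside ATAH, where it had 0.0617 RPKM.

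Of 10 relatives and partners of ZFP36, 8 had a named cluster. In each of the 6 comparisons 0 of the 8 were called, where 3.08% to 26.3% of all clusters were called in either direction. Their median log2 ratio was 0.58 for ATAS over ATAB and 0.26 for ATAS over ATFB, against 0.33 and 0.10 for all clusters. For ATAB and ATAH over ATFB it was -0.35 and -0.10, against -0.15 and 0.11. The median for ATAS over ATFB became 0.14 under TMM and 0.009 under ACTB scaling. ZFP36L1, a paralog that binds the same elements, had 114 RPKM in fetal fat, 95.5 in bulls, 113 in heifers and 170 in steers. CNOT1, the scaffold of the deadenylase complex, had 22.1, 23.4, 28.3 and 31.8 RPKM, and CNOT7, one of its nucleases, had 24.0, 13.4, 18.3 and 21.4 RPKM. DCP1A, of the decapping complex, and ELAVL1, which binds AU-rich elements and stabilises mRNA, lay between 6.96 and 12.2 RPKM and between 19.7 and 25.5 RPKM. Under ACTB scaling 1 of the 8 was called, lower in ATAB than in ATFB.

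Upstream of these genes lie growth factor receptors, MAP kinases and the serum response factor. Of 23 such genes 22 had a named cluster, 9 were called higher in ATAS than in ATFB and 7 in ATAH than in ATFB, with 0 lower (1 lower in ATAH under TMM and under ACTB scaling, PDGFRA), where 15.6% and 14.0% of all clusters were called higher. In ATAB 2 were called higher than in ATFB, where 9.61% of all clusters were, and this count was 5 under TMM and 0 under ACTB scaling. Between the adult libraries 0 were called in ATAH over ATAB and 2 in ATAS over ATAB, where 4.32% and 7.0% of all clusters were called higher. The latter were EGFR and SRF, named after their values were seen, and SRF lost its call under TMM. SRF, which binds the promoters of FOS and EGR1, had 6.25 RPKM in fetal fat, 12.1 in bulls, 22.7 in heifers and 27.0 in steers.

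Among the genes of this list with the most reads were PDGFRA, PDGFRB, MAPK3 and MAP2K1. The receptor PDGFRA had 67.6, 52.7, 34.0 and 41.4 RPKM and was called nowhere with library totals. Its log2 ratio of ATAH over ATFB, -0.99, became -1.09 under TMM and -1.26 under ACTB scaling, and was called lower under both. Its relative PDGFRB had 32.5, 56.6, 70.7 and 97.7 RPKM and was called higher in ATAH (not under ACTB scaling) and ATAS than in ATFB. The kinase MAPK3 (ERK1) had 88.6, 111, 97.0 and 103 RPKM, and MAP2K1, which phosphorylates it, had 24.4, 42.1, 43.2 and 34.2 RPKM, both called nowhere. None of the 4 was called between adult libraries.

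**Figure D5:**
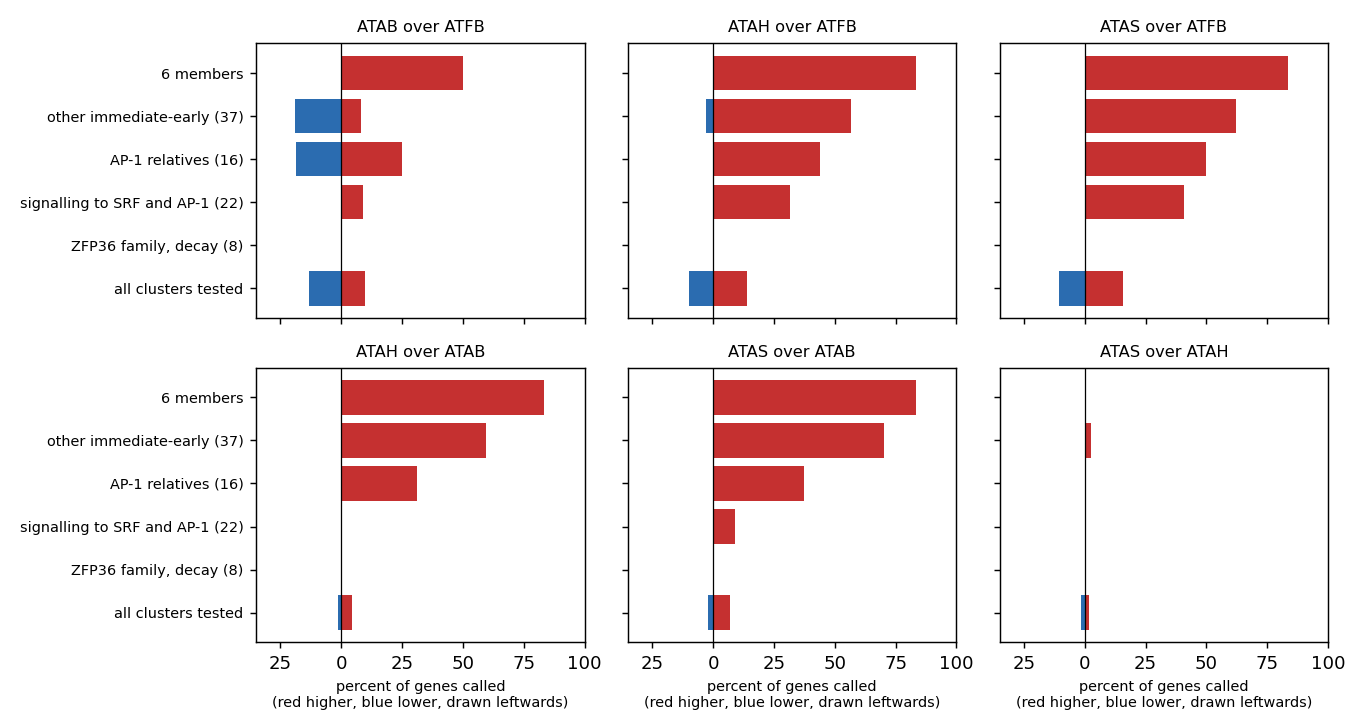
Percent of genes called higher (red, to the right) and lower (blue, to the left) in each of the 6 comparisons, for the 6 genes, the 4 larger lists and all clusters tested. In ATAS over ATAB 5 of 6 genes, 26 of 37 other immediate-early genes, 6 of 16 AP-1 relatives, 2 of 22 signalling genes and 0 of 8 ZFP36 relatives and partners are called higher, beside 7.0% of all clusters.

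The named clusters most like the mean profile of the 6 genes were sought among 10141 clusters with at least 100 reads in total and a read in every library. CSRNP1, a nuclear protein that is itself an immediate-early gene, was nearest, at a root mean square difference of 0.04 on the log2 scale over the 4 libraries. It had 6.57 RPKM in fetal fat, 13.9 in bulls, 42.1 in heifers and 52.0 in steers. FAM69C (25 to 186 reads in a library) and RASGRP1, an activator of Ras (10 to 77 reads), followed at 0.06 each. The hypothetical protein MGC126945 stood at 0.09 and FAM222A, with 12 to 97 reads, at 0.10. FAM69C, RASGRP1 and FAM222A had few reads, so their places are less certain than that of CSRNP1.

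Markers of cell types also moved between the libraries. The 7 leukocyte markers, all with a named cluster, summed to 321 RPKM in fetal fat, 808 in bulls, 1071 in heifers and 1929 in steers, the order of FOS, JUN and EGR1. The adipocyte and endothelial sums had that order too. CD74 made up most of the leukocyte sums, with 206, 624, 900 and 1663 RPKM. Of the 7 markers, 3 were higher and 4 lower in heifers than in bulls, so the higher sum in heifers rested on CD74. In ATAH over ATAB 0 of the 7 leukocyte markers were called, where 4.32% of all clusters were called higher, with a median log2 ratio of -0.05 against 0.29. In ATAS over ATAB 3 were (CD3E, CD74 and PTPRC), where 7.0% of all clusters were, with a median of 0.72 against 0.33. In ATAS over ATAH all 7 were higher, with a median of 0.79 against 0.01, and ITGAM was called (not under TMM), where 1.59% of all clusters were called higher. PTPRC lost its call in ATAS over ATAB under TMM. Against fetal fat 5 of the 7 were called higher in bulls, 4 in heifers and 5 in steers, with medians from 1.4 to 2.41, where 9.61%, 14.0% and 15.6% of all clusters were called higher. CD14, at 53.1, 56.5, 54.7 and 81.4 RPKM, and CD163, at 21.1, 37.6, 32.7 and 39.4 RPKM, were called in none of the 6 comparisons. Under TMM CD163 was called higher in bulls than in fetal fat, at a log2 ratio of 1.01.

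Endothelial markers (4 of 5 with a named cluster) summed to 182 RPKM in fetal fat, 256 in bulls, 354 in heifers and 450 in steers, with 0 of 4 called between adult libraries, where 3.08% to 8.88% of all clusters were called in either direction. Over fetal fat VWF was called higher in each adult library and CDH5 in heifers (not under ACTB scaling) and steers, where 9.61% to 15.6% of all clusters were called higher. Fibroblast markers (5 of 5) summed to 10473, 7747, 2288 and 2997 RPKM, lower in ATAH and ATAS than in ATFB and ATAB. COL1A1 and COL3A1 had the most reads of the 5, 688110 and 542555, beside 232344 for DCN. COL1A1, COL3A1 and LUM were called lower in ATAH and ATAS than in ATAB, where 1.26% and 1.89% of all clusters were. DCN and PDGFRA were called in neither comparison. All 5 were lower in ATAH than in ATAB, while in ATAS over ATAB 4 were lower and 1 higher (5 lower under TMM). In ATAS over ATAH 3 were higher and 2 lower, with 0 called and a median log2 ratio of 0.29 against 0.01 for all clusters. All 5 adipocyte markers were called higher in each adult library than in fetal fat, where 9.61% to 15.6% of all clusters were. Their median log2 ratios over ATFB were 3.13 in bulls, 3.52 in heifers and 3.79 in steers. Among the adults the adipocyte markers had medians of 0.25 for ATAH over ATAB, with 0 of 5 called, and 0.61 for ATAS over ATAB, against 0.29 and 0.33 for all clusters, of which 4.32% and 7.0% were called higher. In ATAS over ATAB LIPE was called higher (under TMM LIPE was not called and 1 of the 5, LEP, was called lower). Muscle markers (4 of 7) summed to at most 5.03 RPKM in a library. Red cell markers (HBG2 and ALAS2, 2 of 5) summed to 2390 RPKM in fetal fat, 0.761 in bulls and 1.54 in heifers, and the steers had no read on them. The part of these cell types in the levels of the 6 genes was not tested.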

How the data were processed

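Poly(A) RNA of 4 pooled libraries, 1 a group, was sequenced on an Illumina instrument. The authors removed adaptor, redundant and low-quality reads and aligned the rest with SOAPaligner, versions not given in the sources used here. The deposited counts are raw numbers of uniquely matched reads per UniGene cluster, the deposited RPKM were computed by the authors from these counts, and the deposited percent is the part of each cluster sequence covered by reads. Strand was not used in the counting as far as stated, so reads of overlapping antisense transcripts cannot be told apart.

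Names, coding ends and sequences came from the headers and entries of the deposited sequence file (45364 entries), with no genome coordinates used. Totals of 15.3 M to 16.1 M reads set the precision, and intervals (95%, Poisson for levels and Clopper-Pearson for ratios) covered counting error only, since reads are not independent molecules. Pairs of libraries were tested with scipy 1.17.1 (exact binomial test), and ATFB against 3 adult libraries with edgeR 4.0.16 (quasi-likelihood, TMM, filterByExpr) in R 4.3.3. Alternatives were TMM or ACTB scaling, at least 10 reads, edgeR's exact test with an assumed coefficient of variation of 0.4, DESeq2 1.42.0, the likelihood ratio test, no filter and leaving out each adult library. The tests were checked on simulated data, which for the stage test had alike adult libraries and a smaller spread than the one fitted here. The 6 genes and the gene lists were chosen with earlier results of these data known. Named genes were the 6, the 5 with the most reads of each list, the 5 most like the mean profile, and the markers. Some genes of the lists, counted in them, are not reported here by name. Promoters and proteins were not analysed here.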

Additional observations from a re-analysis of the deposited data

How the results depend on the processing

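The direction of all 36 ratios of the 6 genes between 2 libraries was the same under TMM, ACTB scaling, a minimum of 10 reads, added clusters (each gene had 1) and the assumed spread. The calls were also the same, except that JUNB was called lower in ATAB than in ATFB (-1.09) with ACTB scaling, and that 20 of the 36 ratios lost their call when edgeR's exact test assumed a coefficient of variation of 0.4 between libraries, each a pool of 5 animals. Under that assumption 0 of the 6 genes were called in ATAB over ATFB, 1 (FOSB) in ATAH over ATFB, 2 (FOSB and EGR1) in ATAS over ATFB, 0 in ATAH over ATAB and 0 in ATAS over ATAB, and the clusters called numbered 184, 229, 278, 13 and 5 in the same order and 12 in ATAS over ATAH. The pairwise calls thus rest on counting error alone.

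For ATFB against the adult libraries, leaving out 1 adult library gave 3 to 5 of the 6 genes (5 without ATAB) and 3058 (without ATAH) to 7326 (without ATAB) clusters called. With edgeR's likelihood ratio test in its place 7373 clusters were called. Under the pairwise thresholds, an FDR of 0.001 and 2-fold, edgeR's quasi-likelihood test called 0 of the 6 genes and 0 clusters, where 9576 clusters had an unadjusted p under 0.05, DESeq2 called 1588 clusters and the likelihood ratio test 2360. The unadjusted p was under 0.05 for 3 of the 6 genes. No paired analysis was possible because each group had 1 library.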
